A study of Mus musculus with 34 samples.

Results

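Fatty acid synthesis in the liver was followed through 10 genes, Acly, Me1, Acaca, Fasn, Elovl6, Scd1, Scd2, Srebf1, Thrsp and Pnpla3, out of 19047 genes with a tested probe on an Illumina mouse BeadChip, an array that reads each transcript as the fluorescence of a bead-bound probe. Every probe whose platform gene symbol was one of these names was taken, which gave 13 of 45281 probes, a pair each for Elovl6, Srebf1 and Thrsp. The arrays came from male C3H/HeNCrl mice, a strain known for spontaneous liver tumors, which received a single whole-body exposure or were sham-irradiated. The tumors were hepatocellular carcinomas (HCC). High-LET HCC came from 7 mice given 0.1 to 1 Gy of heavy ions (Fe or Si in the methods), low-LET HCC from 3 mice given 2 or 3 Gy of gamma rays, and spontaneous HCC from 4 sham-irradiated mice. Non-HCC livers came from 10 mice given 1 Gy of high-LET radiation, 4 mice given 3 to 7 Gy of low-LET radiation and 6 sham-irradiated mice. The study names Fe as the ion for its high-LET non-HCC livers, and the labels give no ion for any sample. High-LET HCC and high-LET livers may therefore differ in ion, and no comparison of ions was made. Doses follow the labels, and for the low-LET livers the labels exceed the gamma-ray range given in the study's methods. Most tumors of an irradiated group had another dose than the livers of the same radiation class, and no comparison was made at matched dose. Replicates are separately labelled liver samples, and p-values measure the spread between these samples.

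De novo lipogenesis turns surplus carbohydrate into fat. Citrate leaves the mitochondrion and is cleaved to acetyl-CoA by ATP citrate lyase (Acly), malic enzyme (Me1) supplies NADPH, acetyl-CoA carboxylase (Acaca) makes malonyl-CoA, and fatty acid synthase (Fasn) builds palmitate, which Elovl6 elongates and the stearoyl-CoA desaturases Scd1 and Scd2 turn into monounsaturated fat. Insulin drives the pathway through SREBP-1c, a product of Srebf1, and glucose through ChREBP, with Thrsp (Spot 14) and Pnpla3, a lipid droplet protein with lipase and acyltransferase activity, among the genes that respond.

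The promoters of 4 members are printed to show how the control sequences differ among them: Fasn and Thrsp, which passed no test in the main fit, and Pnpla3 and Me1, which did. RefSeq promoters (GRCm38.p6, 250 bases before to 50 bases after each start) were matched for 8 of the 10 members, all but Scd1 and Scd2, with 11 promoters in total. Capitals mark CCAAT boxes, the motif bound by NF-Y, written CCAAT on the printed strand and ATTGG where the box lies on the other strand. Each line gives the 250 bases upstream of the start, 5′ to 3′ in the direction of the gene. The Fasn sequence is chr11:120824548-120824797 on the minus strand, Thrsp is chr7:97417551-97417800 on the minus strand, Pnpla3 is chr15:84167566-84167815 on the plus strand and Me1 is chr9:86687278-86687527 on the minus strand, the first of a pair of Me1 promoters.
Fasn: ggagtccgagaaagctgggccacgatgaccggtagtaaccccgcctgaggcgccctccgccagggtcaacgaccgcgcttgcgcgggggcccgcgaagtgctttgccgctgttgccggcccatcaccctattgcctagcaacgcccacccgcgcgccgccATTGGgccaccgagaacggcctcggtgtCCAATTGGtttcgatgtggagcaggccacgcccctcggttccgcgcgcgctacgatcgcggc
Thrsp: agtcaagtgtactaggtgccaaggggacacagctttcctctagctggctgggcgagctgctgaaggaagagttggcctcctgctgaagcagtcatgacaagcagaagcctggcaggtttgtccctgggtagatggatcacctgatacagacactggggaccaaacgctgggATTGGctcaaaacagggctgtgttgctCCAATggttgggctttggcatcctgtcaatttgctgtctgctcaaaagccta
Pnpla3: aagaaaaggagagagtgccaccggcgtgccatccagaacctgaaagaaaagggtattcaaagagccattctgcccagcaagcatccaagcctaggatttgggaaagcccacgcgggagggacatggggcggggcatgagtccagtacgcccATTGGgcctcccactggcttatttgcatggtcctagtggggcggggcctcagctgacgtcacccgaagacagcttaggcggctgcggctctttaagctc
Me1: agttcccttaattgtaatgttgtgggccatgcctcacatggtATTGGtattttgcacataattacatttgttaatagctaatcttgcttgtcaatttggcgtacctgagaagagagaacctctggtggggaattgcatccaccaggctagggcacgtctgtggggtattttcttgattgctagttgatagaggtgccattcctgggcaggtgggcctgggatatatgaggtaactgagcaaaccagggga

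In Fasn the boxes begin 90, 62 and 59 bases before the start, and the last pair overlaps in the run CCAATTGG. Thrsp holds boxes at 79 and 52 bases, Pnpla3 holds 1 at 99 bases and the printed Me1 promoter holds 1 at 208 bases. The other Me1 promoter (chr9:86695915-86696164 upstream of its start), which begins at the annotated 5′ end of the gene, holds 0. Searched on both strands over the whole window, CCAAT was found in 7 of the 11 member promoters, from 6 of the 8 members, and in 37.4% of the 32851 promoters of the table. The sterol regulatory element written TCACNCCAC was found in 0 of 11 (1.24% of all promoters) and the E-box CACGTG in 0 of 11 (7.15% of all promoters), which says only that these letters are not in these windows.

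All values below are normalised signals in arbitrary units, with background corrected and a constant of 50 added to every intensity, and differences are on the log2 scale of those signals. The constant understates the changes of dim probes. One limma fit held all 34 arrays. A call needed a fold change above 1.3 and a p under 0.1 after Benjamini-Hochberg adjustment over all 45219 tested probes. A gene is represented by its brightest probe. The representative probes of 9 members lay above the background limit on all 34 arrays. The Acaca probe lay above it on none, so the carboxylase was not measured and carries only the array's background. The second probes were above background on 1 of 34 arrays for Elovl6, 0 for Srebf1 and 14 for Thrsp, and none of them was called in any comparison. Per array, 20787 to 24751 of all probes lay above the limit, and the number of arrays limits the precision.

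In the study, liver tumors were classified as HCC or adenoma by blinded histology. Marker signals were described beside these labels first, and they cannot decide a label. Glypican 3 (Gpc3), an oncofetal marker of HCC chosen after its values were seen, read 1015 to 11169 in 11 of the 14 HCC, against 60.3 to 155 in the 20 non-HCC livers. In the other 3 HCC, high-LET replicates 5 (0.2 Gy), 6 and 7 (1 Gy each), it read 103 to 108, within the range of the livers. Alpha-fetoprotein (Afp) read 55.4 to 59.4 in the same 3 tumors, 89.0 to 873 in the other 11 and 55.1 to 64.9 in the livers. For the members, the comparisons of high-LET HCC, and of all HCC, were therefore also run without these 3, a setting added after the data were seen. Pathway lists and cell type markers were tested on all arrays only. Among 8 hepatocyte markers the summed signal ran from 95656 to 116349 in high-LET HCC and from 101038 to 113713 in low-LET HCC. It was 102142 to 107944 in spontaneous HCC and 105951 to 116427 in sham livers. Macrophage markers, 7 in number, summed to 1170 to 5094 in high-LET HCC and to 1883 to 2507 in sham livers. The 3 tumors with Gpc3 at the level of the livers held the highest of those sums, 4538 to 5094. Adipocyte markers summed to 469 to 525.8 in high-LET HCC and 470 to 525 in sham livers, and 0 of 7 were called in any kind of HCC against sham. In tissue samples, fewer cells of a type and less RNA per cell cannot be told apart.

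Me1, the malic enzyme that makes NADPH for fatty acid synthesis, fell in every kind of HCC. Its signal in high-LET HCC was 76.3 at the lowest, 118 at the median and 213 at the highest. In low-LET HCC it read 119, 91.3 and 80.5, and in spontaneous HCC it read 91.7, 88.5, 80.7 and 78.4. All 7 low-LET and spontaneous tumors, and 5 of the 7 high-LET tumors, lay below every one of the 20 non-HCC livers. Those livers ran from 153 at the lowest through 310 at the median to 460 at the highest, and sham livers alone from 183 to 378. High-LET HCC differed from sham livers by -1.13 ± 0.26 (SE, adjusted p = 0.00534), low-LET HCC by -1.55 ± 0.33 (adjusted p = 0.00243) and spontaneous HCC by -1.72 ± 0.30 (adjusted p = 0.000179). Against livers of the same radiation class it was -1.18 ± 0.23 for high-LET HCC (adjusted p = 0.000708) and -1.45 ± 0.36 for low-LET HCC (adjusted p = 0.0107). Over all HCC against all non-HCC livers, each radiation class weighing the same, it was -1.45 ± 0.17 (adjusted p = 1.5e-07), and all 14 tumors lay below the mean of the livers. Without the 3 tumors of low Gpc3, Me1 differed by -1.54 in high-LET HCC from sham (adjusted p = 0.000152), by -1.58 from high-LET livers (adjusted p = 2.72e-05) and by -1.58 over all HCC (adjusted p = 9.77e-09). On all 6 BeadChips with tumors and livers together the difference was negative, at -2.18 to -0.72. On the authors' normalized values, which carry no added constant, the difference from sham was -1.96 for high-LET HCC, -2.82 for low-LET HCC and -3.34 for spontaneous HCC.

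**Figure D1:**
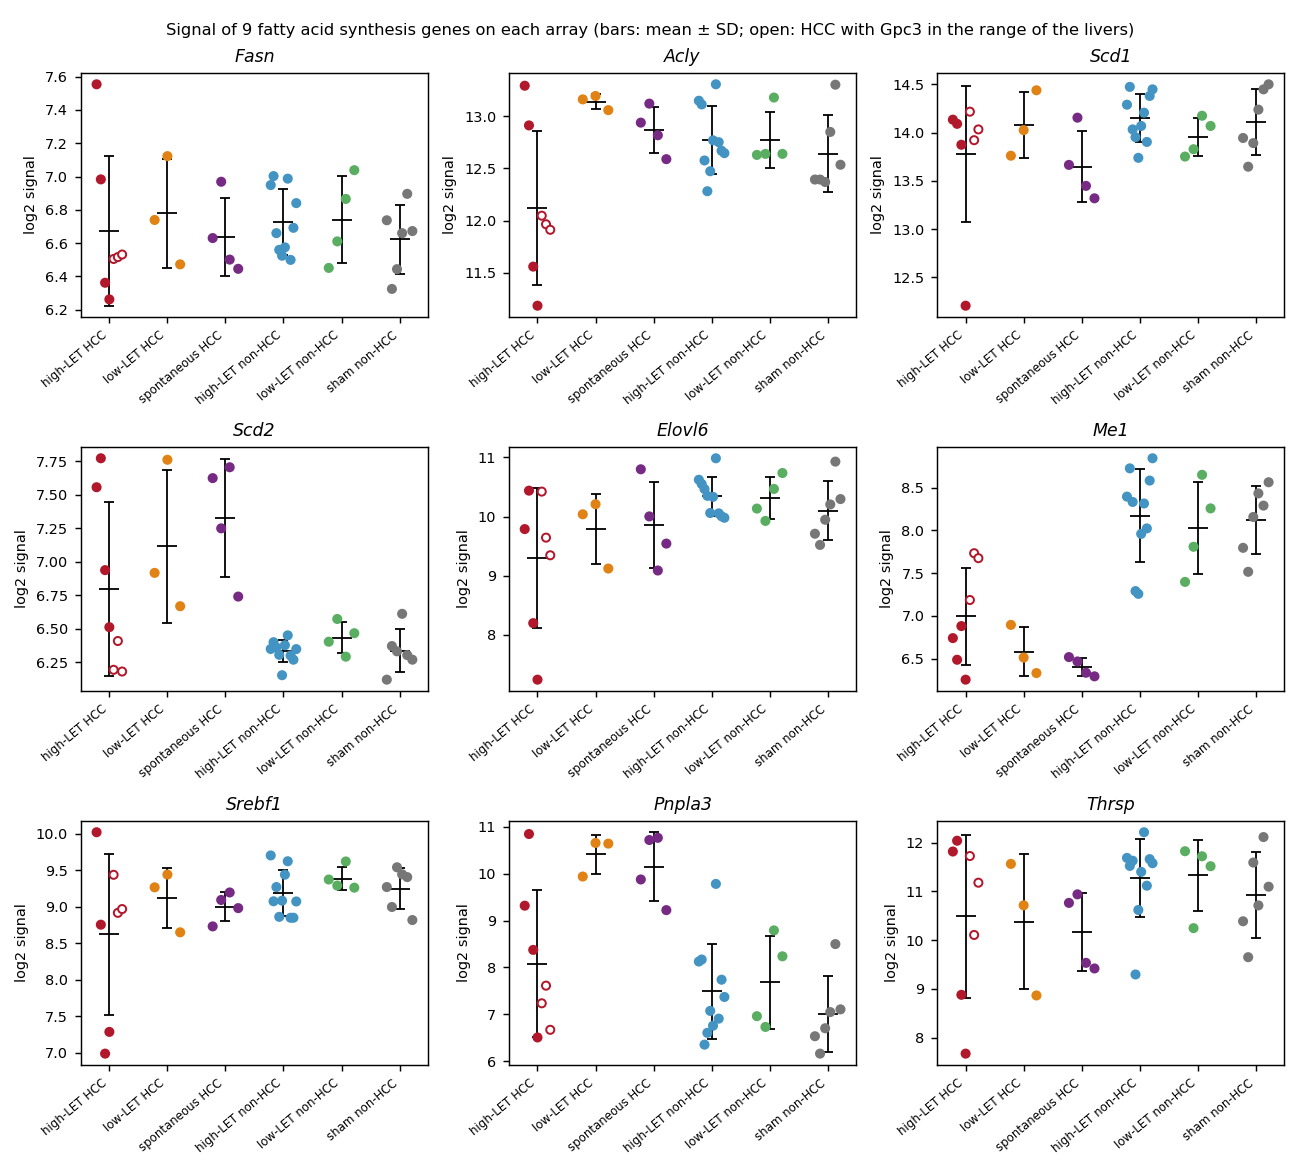
Normalised signal (log2) of the 9 measured fatty acid synthesis genes in each of the 34 arrays, by group, with group means and SD. Points are single liver samples and open circles are the 3 high-LET HCC with Gpc3 at the level of the livers. Me1 lies lower in HCC, where the highest tumor read 213, than in most of the livers, which reached 460.

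Acly, the cytosolic source of acetyl-CoA, was low in 5 of the 7 high-LET tumors. Its signal read 10036, 7709, 3018, 2327, 4232, 3999 and 3854 in high-LET HCC, replicates 1 to 7, against 9164, 9374 and 8533 in low-LET HCC and 7853, 8910, 7222 and 6161 in spontaneous HCC. Replicates 3 to 7 lay below every non-HCC liver, the lowest of which read 4980, while replicates 1 and 2 lay among the livers, and no low-LET or spontaneous HCC lay below them. Against high-LET livers the difference was -0.65 ± 0.21 (SE, adjusted p = 0.036), a call lost without replicate 3 (-0.56, adjusted p = 0.106), without replicate 4 (-0.49, adjusted p = 0.123), without the 3 tumors of low Gpc3 (-0.54, adjusted p = 0.191), with BeadChip as a block (-0.49, adjusted p = 0.223), at a common median (-0.68, adjusted p = 0.173) and with only the groups compared (adjusted p = 0.115). Against sham livers no kind of HCC passed: high-LET HCC differed by -0.52 ± 0.23 (adjusted p = 0.205), low-LET HCC by 0.50 ± 0.30 (adjusted p = 0.433) and spontaneous HCC by 0.23 ± 0.27 (adjusted p = 0.744). Without the 3 tumors the high-LET difference from sham was -0.40 (adjusted p = 0.443). With all 20 non-HCC livers as baseline in place of sham, Acly was called lower in high-LET HCC (3788 probes called).

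Fasn, the synthase itself, did not pass the test in any of the 12 comparisons. Its signal was dim. High-LET HCC ran from 76.8 through a median of 91.6 to 188, against 80.2, 102 and 119 in sham livers. The difference over all HCC was -0.00 ± 0.10 (SE, adjusted p = 0.995). Without the 3 tumors of low Gpc3 it was 0.04 (adjusted p = 0.89), and high-LET HCC differed from sham by 0.05 ± 0.16 with them and by 0.17 (adjusted p = 0.682) without them. High-LET HCC replicate 1 (188) and low-LET HCC replicate 2 (139) lay above all 20 livers, and the 0.4 Gy high-LET tumor (76.8) lay below them all.

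Elovl6, which lengthens palmitate to stearate, was lower in high-LET HCC than in high-LET livers. It read 883, 1387, 293, 151, 1371, 799 and 650 in high-LET HCC, replicates 1 to 7, against 1009 to 2028 with a median of 1297 in high-LET livers. The groups overlap through replicates 2 and 5. The difference was -1.04 ± 0.33 (SE, adjusted p = 0.0327), and -1.43 (adjusted p = 0.00848) without the 3 tumors of low Gpc3. It lost its call without replicate 3 (-0.86, adjusted p = 0.106) or replicate 4 (-0.70, adjusted p = 0.114), with BeadChip as a block (-0.86, adjusted p = 0.185) and at a common median (-0.99, adjusted p = 0.124). Against sham it was -0.81 ± 0.37 (adjusted p = 0.215), and -1.19 (adjusted p = 0.0569), a call, without the 3 tumors. Over all HCC the difference was -0.61 ± 0.25 (adjusted p = 0.0907), and -0.73 (adjusted p = 0.0339) without the 3 tumors. That call was lost in 10 of 24 omissions of 1 array, those of high-LET HCC 3, low-LET HCC 3, spontaneous HCC 2, 3 and 4, low-LET livers 3 and 4 and sham livers 4, 5 and 6, where the value lay between -0.62 and -0.49. It was also lost with BeadChip as a fixed block (-0.35, adjusted p = 0.526) or a random block (-0.57, adjusted p = 0.116), at a common median (-0.60, adjusted p = 0.182), in an ordinary linear model (adjusted p = 0.11), with array weights (-0.44, adjusted p = 0.136), with the mean of all probes (-0.30, adjusted p = 0.105) and at the stricter thresholds.

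The desaturases Scd1 and Scd2 are neighbours on chromosome 19 (chr19:44394450-44407709 and chr19:44293676-44306864, GRCm38.p6), and their results differed. Scd1, the main hepatic form, was among the bright probes and was not called in any comparison of the main fit. In spontaneous HCC against sham it was called lower in 1 of 39 alternative settings. High-LET HCC read 4724 to 19029, low-LET HCC 13870 to 22187 and spontaneous HCC 10214 to 18226, against 12817 to 23160 in sham livers. Over all HCC the difference was -0.24 ± 0.15 (SE, adjusted p = 0.34), and -0.31 (adjusted p = 0.198) without the 3 tumors of low Gpc3. High-LET HCC differed from sham by -0.33 ± 0.22 (adjusted p = 0.475), and by -0.53 (adjusted p = 0.21) without the 3. The 0.4 Gy tumor at 4724 and spontaneous replicates 3 and 4 lay below all 20 livers.

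Scd2, the form prominent in brain and in developing liver, rose in spontaneous and low-LET HCC. It read 197, 152, 209 and 107 in spontaneous HCC, against 69.6, 82.8, 80.5, 97.8, 79.0 and 77.1 in sham livers. The groups did not overlap, and the difference was 1.00 ± 0.24 (SE, adjusted p = 0.00436). In low-LET HCC it read 121, 217 and 102, which gave 0.78 ± 0.26 (adjusted p = 0.0628), a call lost without low-LET HCC replicate 2 (0.46, adjusted p = 0.472) or sham replicate 1 (0.74, adjusted p = 0.111). Against low-LET livers, at 84.7, 95.2, 78.4 and 88.5, it was 0.68 ± 0.28 (adjusted p = 0.181). All 7 of these tumors lay above every one of the 20 livers, whose highest value was 97.8.

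In high-LET HCC, Scd2 read 188, 219, 123, 91.3, 73.2, 85.0 and 72.6 in replicates 1 to 7, and only replicates 1 to 3 lay above all livers. Against high-LET livers, which read 71.2 to 87.5, the difference was 0.46 ± 0.18 (SE, adjusted p = 0.0982), close to the threshold and lost in 15 of 24 omissions of 1 array. Those omissions included high-LET HCC replicates 1 to 3 (0.30 to 0.44), and the call was kept without high-LET HCC 4 to 7, low-LET HCC 2 or 3, or spontaneous HCC 1, 3 or 4. The call was also lost with no background correction, at a common median, in an ordinary linear model, with array weights, with only the groups compared and at the stricter thresholds (0.29 to 0.47). Against sham it was 0.46 ± 0.20 (adjusted p = 0.191). Without the 3 tumors of low Gpc3, which read 72.6 to 85.0, the differences were 0.86 from both sham livers (adjusted p = 0.00231) and high-LET livers (adjusted p = 0.000768). Over all HCC, Scd2 was higher by 0.71 ± 0.14 (adjusted p = 0.000164), without the 3 tumors by 0.85 (adjusted p = 1.62e-06), and within BeadChips by 0.25 to 1.48 in 6 of 6. The authors' normalized values gave 1.71 over all HCC and 2.45 in spontaneous HCC against sham.

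Srebf1, which encodes the SREBP-1 factors, had no call in the main fit of all arrays. With all 20 non-HCC livers as baseline in place of sham, it was called lower in high-LET HCC (3788 probes called). It read 1040, 432, 126.9, 156, 694, 483 and 501 in high-LET HCC, replicates 1 to 7, against 451 to 745 in sham livers. The difference was -0.62 ± 0.31 (SE, adjusted p = 0.261), and without the 3 tumors of low Gpc3 it was -0.98 (adjusted p = 0.0566), which passed the threshold. Against high-LET livers it was -0.56 ± 0.27 (adjusted p = 0.218), and -0.92 (adjusted p = 0.0452), again a call, without the 3. Over all HCC it was -0.36 ± 0.20 (adjusted p = 0.278), and -0.48 (adjusted p = 0.111) without the 3. Low-LET HCC read 616, 695 and 402 and spontaneous HCC 425, 546, 587 and 506, with differences from sham of -0.13 ± 0.39 and -0.25 ± 0.36. Thrsp, a small protein that raises lipogenesis, varied widely within groups. High-LET HCC read 204 to 4207, low-LET HCC 467 to 3027 and spontaneous HCC 685 to 1964, against 804 to 4432 in sham livers. The difference over all HCC was -0.83 ± 0.39 (adjusted p = 0.164), and -0.96 (adjusted p = 0.11) without the 3 tumors. High-LET HCC differed from sham by -0.44 ± 0.59 (adjusted p = 0.784), and by -0.82 (adjusted p = 0.553) without the 3.

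Pnpla3 had the largest change among the members. It read 981, 1611 and 1595 in low-LET HCC and 939, 1683, 1738 and 597 in spontaneous HCC, against 92.7, 71.7, 104, 133, 362 and 138 in sham livers. Neither kind of tumor overlapped with the sham livers, and the signal was 10.6-fold higher in low-LET HCC (3.40 ± 0.73 on the log2 scale, SE, adjusted p = 0.00265) and 8.78-fold higher in spontaneous HCC (3.13 ± 0.67, adjusted p = 0.00159). Against low-LET livers, at 125, 106, 443 and 302, low-LET HCC was higher by 2.73 ± 0.79 (adjusted p = 0.0346). That call was lost without low-LET HCC replicate 2 or 3 or low-LET liver replicate 2 (2.41 to 2.61, adjusted p 0.107 to 0.126) and with BeadChip as a block (2.16, adjusted p = 0.246).

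High-LET HCC spanned the whole range of Pnpla3, at 638, 1839, 332, 91.1, 151, 196 and 102 in replicates 1 to 7, and only replicate 2 lay above all livers, the highest of which read 880. The difference from sham livers was 1.07 ± 0.57 (SE, adjusted p = 0.317), and 1.75 (adjusted p = 0.0739) without the 3 tumors of low Gpc3, which read 102 to 196. From high-LET livers, at 81.9 to 880 with a median of 150, it was 0.59 ± 0.51 (adjusted p = 0.571), and 1.27 (adjusted p = 0.174) without the 3. Over all HCC, Pnpla3 was higher by 2.15 ± 0.38 (adjusted p = 7.19e-05), without the 3 tumors by 2.38 (adjusted p = 2.09e-05), and within BeadChips in 5 of 6 (-0.48 to 3.50). The authors' values gave 4.65 for low-LET HCC against sham and 4.36 for spontaneous HCC against sham.

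**Figure D2:**
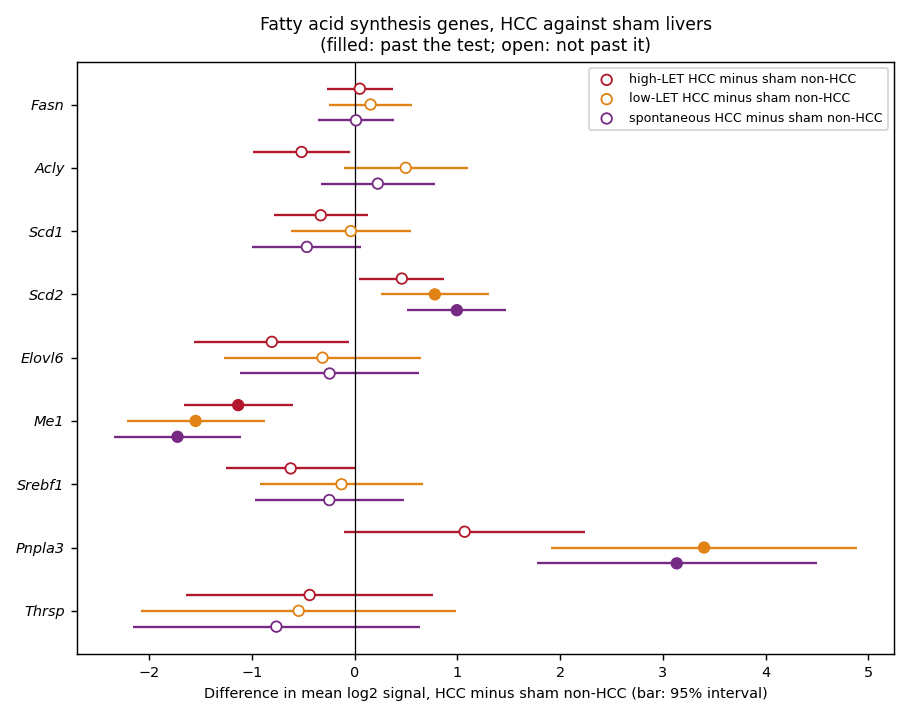
Difference in normalised signal (log2, with 95% intervals) of each kind of HCC from sham livers, gene by gene. Filled symbols passed the test. Me1 lies below 0 in all 3 kinds of HCC (-1.13, -1.55 and -1.72), and Pnpla3 and Scd2 have filled symbols above 0 in low-LET HCC (3.40 and 0.78) and spontaneous HCC (3.13 and 1.00). In high-LET HCC they lie at 1.07 and 0.46 with open symbols.

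Counted over the list, 1 of 10 members passed in high-LET HCC against sham (0 higher, 1 lower, with 6.76% of all probes called), 3 in low-LET HCC against sham (2 higher, 1 lower, 7.53% of all probes) and 3 in spontaneous HCC against sham (2 higher, 1 lower, 9.4% of all probes). Against livers of the same radiation class, 4 passed in high-LET HCC (1 higher, 3 lower, 8.08% of all probes) and 2 in low-LET HCC (1 higher, 1 lower, 6.58% of all probes). Over all HCC, 4 passed, 2 in each direction (9.42% of all probes). Against sham the median difference of the members was -0.38 for high-LET HCC, -0.06 for low-LET HCC and -0.14 for spontaneous HCC, where the medians of all probes lay between -0.01 and 0.00. Without the 3 tumors of low Gpc3, high-LET HCC against sham had 5 calls, Scd2 and Pnpla3 higher and Elovl6, Me1 and Srebf1 lower. Calls over all probes rose as well, from 3056 to 5255 of 45219. Against high-LET livers there were again 4, Srebf1 in place of Acly beside Scd2, Elovl6 and Me1, while all probes called rose from 3653 to 5526. Over all HCC the same 4 genes were called with and without the 3, with 4261 and 4907 of all probes. Omitting single tumors moved the count in high-LET HCC against sham too, to 3 without replicate 1 (Acly, Me1, Srebf1) or 5 (Scd2, Elovl6, Me1) and to 2 without replicate 2 (Acly, Me1) or 7 (Scd2, Me1). Over all probes these omissions gave 3058, 3528, 2837 and 3555 calls, in the order named. Against high-LET livers the count was 1 without replicate 3 (Me1) and 2 without replicate 4 (Scd2, Me1), with 2974 and 3283 probes called. The 3 comparisons with sham share the same 6 livers. The shares of all probes include many probes at background, where calls are hard to reach, so they can be a low reference for the members.

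The kinds of HCC were then set against each other. Pnpla3 was lower in high-LET than in spontaneous HCC, with a difference of -2.06 ± 0.65 (SE, adjusted p = 0.0981), the 1 member called of 10, with 2.48% of all probes called. The call lay at the threshold: it was lost in 17 of 24 omissions of 1 array (adjusted p up to 0.316), kept only without high-LET HCC 1, 2 or 3, low-LET HCC 1 or 3, spontaneous HCC 4 or sham liver 5, and lost without the 3 tumors of low Gpc3 (-1.38, adjusted p = 0.415). Without high-LET HCC replicate 1, or without replicate 2, there were 3 calls, Acly, Scd2 and Pnpla3. All probes called then numbered 1659 and 1416, against 1123 on all arrays. Scd2 was not called on all arrays, at -0.54 ± 0.23 against spontaneous HCC (adjusted p = 0.258) and -0.32 ± 0.25 against low-LET HCC (adjusted p = 0.744), and without the 3 tumors at -0.14 and 0.08. In high-LET against low-LET HCC, 0 members were called by limma (0.628% of all probes). Acly at -1.01 ± 0.29 (adjusted p = 0.124) and Pnpla3 at -2.33 ± 0.71 (adjusted p = 0.159) were the 2 members with an unadjusted p under 0.05, out of 4807 probes. Without high-LET HCC replicate 1, or without replicate 2, both were called, with 859 and 661 probes called against 284 on all arrays. Neither was called without the 3 tumors of low Gpc3, Acly at -0.90 (adjusted p = 0.291) and Pnpla3 at -1.65 (adjusted p = 0.445). In low-LET against spontaneous HCC, 0 members were called (0.00663% of all probes), and 0 members had an unadjusted p under 0.05, out of 2311 probes. limma's F-test for an interaction between radiation and HCC, at an adjusted p under 0.2, called 0 members (0.694% of all probes). Acly (adjusted p = 0.363) and Pnpla3 (adjusted p = 0.343) were the 2 members with an unadjusted p under 0.05, out of 4438 probes. Without high-LET HCC replicate 1 or 2 both were called, and without low-LET HCC replicate 1 Pnpla3 was. These omissions called 1430, 832 and 2165 of all probes, against 314 on all arrays. Also without the 3 tumors of low Gpc3, 0 members were called for the interaction, with 147 probes called.

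Radiation without a tumor left no call on these genes. In high-LET livers against sham livers 0 members were called by limma (0% of all probes), with 0 members and 1505 probes at an unadjusted p under 0.05. In low-LET livers against sham livers 0 members were called (0% of all probes), with 0 members and 1495 probes at an unadjusted p under 0.05. The sizes ran from -0.06 for Srebf1 to 0.48 ± 0.53 for Pnpla3 in high-LET livers, and from -0.16 for Scd1 to 0.67 ± 0.67 for Pnpla3 in low-LET livers (SE). The 95% interval of the Pnpla3 difference was -0.61 to 1.57 in high-LET livers and -0.69 to 2.03 in low-LET livers.

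The order of the 6 groups by mean signal shows where members part. For Me1 the 3 groups of livers came first and the 3 kinds of HCC last, with a step of 1.03 between high-LET HCC (6.99 ± 0.57 on the log2 scale, SD, n = 7) and low-LET livers (8.03 ± 0.54, n = 4) that exceeded both SDs. For Scd2 the order was the reverse, spontaneous, low-LET and high-LET HCC before the livers, but no step exceeded both SDs. For Pnpla3 low-LET HCC (10.41 ± 0.41, n = 3) and spontaneous HCC (10.14 ± 0.74, n = 4) came first and did not differ beyond their spread. A step of 2.06 then led to high-LET HCC (8.08 ± 1.56, n = 7), which did not differ beyond its spread from the livers after it. For Acly the step of 0.27 between low-LET HCC (13.14 ± 0.07, n = 3) and spontaneous HCC (12.87 ± 0.22, n = 4) exceeded both SDs, and no other step did. The limma test between these kinds of HCC did not call Acly, also not at an unadjusted p under 0.05. For Fasn, Elovl6, Scd1, Srebf1 and Thrsp no neighbours differed beyond their spread.

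Tumor by tumor, the list behaved unevenly within the high-LET group. The share of all probes beyond the livers in each tumor was not counted, so the member counts below have no reference. The 0.4 Gy tumor, replicate 4, lay below all 20 livers for 7 members, Fasn, Acly, Scd1, Elovl6, Me1, Srebf1 and Thrsp, and above them for none. Replicate 3, at 0.2 Gy, lay below for 5 members and above for Scd2. These tumors also held the lowest hepatocyte marker sums of all HCC, 97716 and 95656, against 101038 to 116349 in the other 12, and the part of this in the member signals was not tested. Replicate 1, at 0.1 Gy, lay above all livers for Fasn, Scd2 and Srebf1 and below for Me1 alone. The 3 tumors of low Gpc3 lay above the livers for 0 members and below for 1 or 2, Acly in each, with Me1 in replicate 5 and Elovl6 in replicate 7. The 7 low-LET and spontaneous tumors shared a pattern of high Scd2 in 7, high Pnpla3 in 6 and low Me1 in 7, spontaneous replicate 4 lying within the livers for Pnpla3 at 597. Doses within the high-LET group had 1 to 3 tumors each, so no comparison of doses was made.

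**Figure D3:**
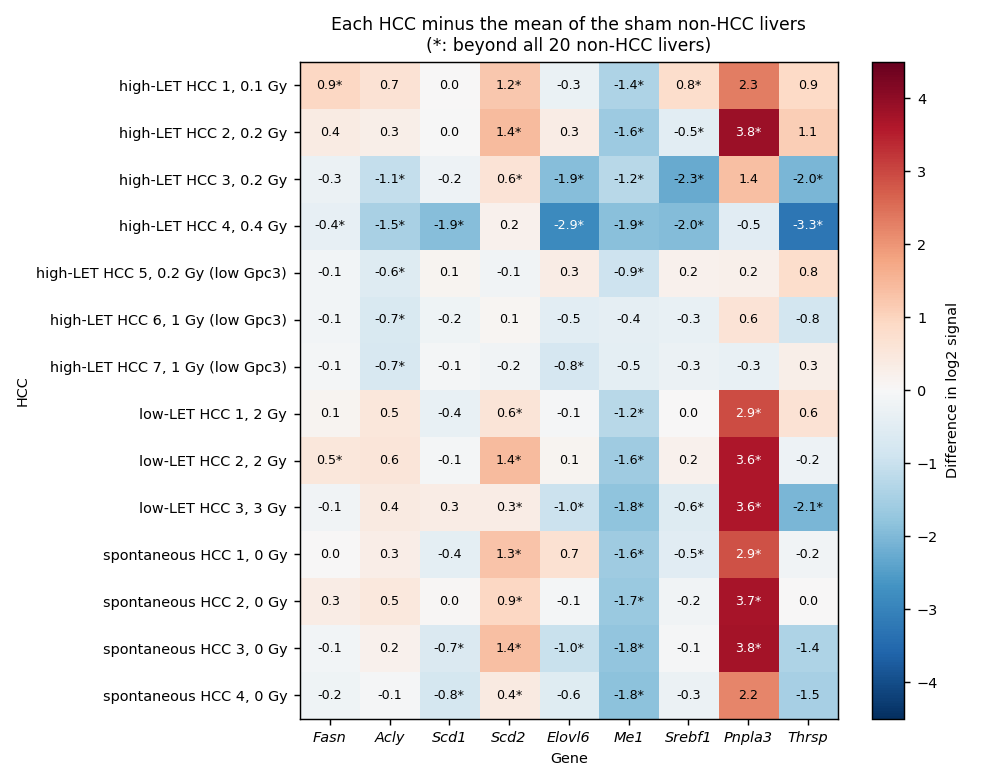
Each of the 14 HCC minus the mean of the sham livers (log2) for the 9 measured genes. Stars mark values beyond all 20 non-HCC livers, and the share of all probes beyond them was not counted. The 0.4 Gy high-LET tumor has stars for 7 genes, all lower, and the low-LET and spontaneous tumors have stars for Me1 (lower) and Scd2 (higher) in 7 of 7.

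How members varied together was described within each tissue, since their levels differ between tissues. Of 36 pairs among 9 members, 14 passed an adjusted p of 0.05 in the 14 HCC (permutation test of Pearson's r, 100000 resamples, two-sided, adjusted over 72 relations), 13 positive and 1 negative, and 5 of them passed by Spearman's rho too. In the 20 livers 21 pairs passed, all positive, 16 of them by rho too. The median r was 0.49 in HCC and 0.53 in livers, and a difference between the tissues was not tested. Pairs of other genes were not examined, so these counts and medians have no reference. Resampling ran across all groups of a tissue, whose means can differ. Acly and Pnpla3 went together in both, with r = 0.87 and rho = 0.67 in HCC (adjusted permutation p = 0.00243 and 0.0366) and r = 0.84 and rho = 0.77 in livers (0.00036 and 0.00312), and r was 0.87 and 0.77 without the 2 arrays farthest from the median of Acly and 0.86 and 0.79 with values centred per BeadChip. Scd1 and Me1 had r = 0.35 in HCC (adjusted permutation p = 0.289) and were the closest pair in livers (r = 0.85, rho = 0.84, adjusted permutation p = 0.00036 and 0.00072), with r = 0.84 there without 2 arrays and 0.88 within BeadChips.

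Scd2 and Pnpla3 went together in HCC (r = 0.80, rho = 0.82, adjusted permutation p = 0.0089 and 0.00922), with r = 0.75 without 2 arrays, 0.70 within BeadChips, 0.82 with values centred per group and 0.61 in the 11 tumors of high Gpc3. In livers they had r = 0.12 (adjusted permutation p = 0.67). Elovl6 and Thrsp had r = 0.84 and rho = 0.74 in HCC (adjusted permutation p = 0.00144 and 0.0182), with r = 0.65 without 2 arrays and 0.62 within BeadChips. The 1 negative pair, Me1 and Pnpla3 in HCC (r = -0.60, rho = -0.34, adjusted permutation p = 0.0484 and 0.356), had r = -0.86 within BeadChips. It had r = -0.32 without 2 arrays and 0.00 in the 11 tumors of high Gpc3, so it was not seen in those 11 alone. The HCC values of Acly with Elovl6 (r = 0.68, rho = 0.53), Acly with Srebf1 (r = 0.71, rho = 0.62) and Elovl6 with Srebf1 (r = 0.74, rho = 0.42) fell to 0.16, 0.23 and 0.05 without the 2 farthest tumors and rested on those. Within BeadChips these pairs had r = 0.72, 0.54 and 0.73. In the 11 tumors of high Gpc3, which include those 2, they had 0.86, 0.92 and 0.73.

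**Figure D4:**
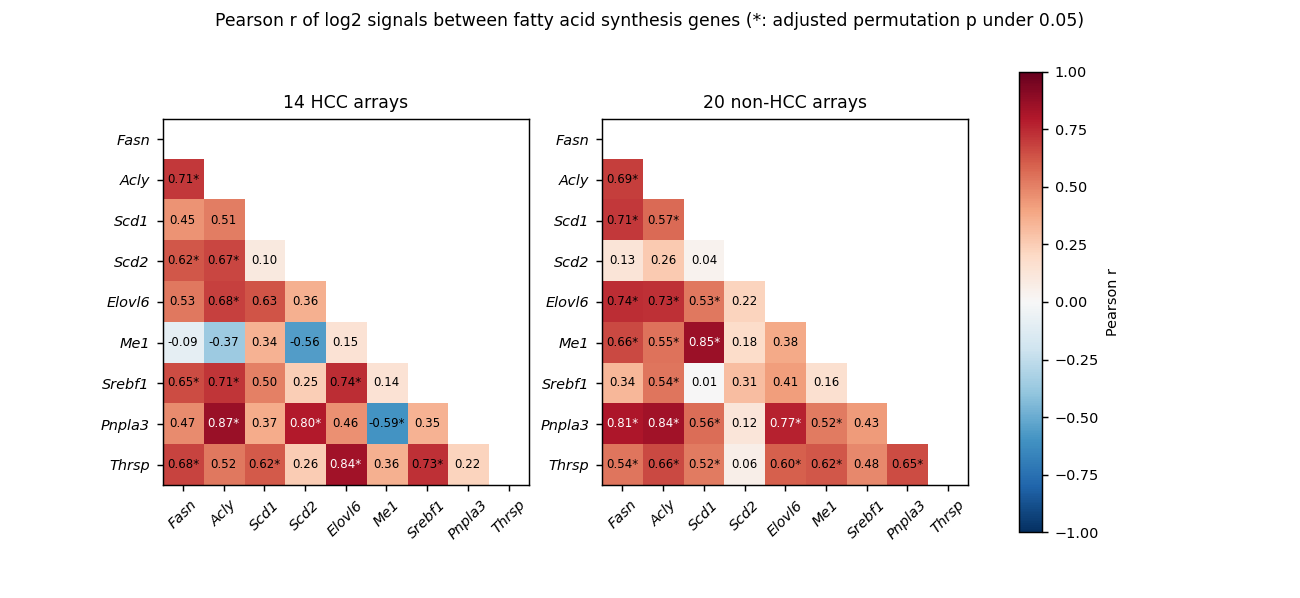
Pearson's r for each pair of the 9 measured genes, over the 14 HCC and over the 20 non-HCC livers. Most pairs are positive in both (median r 0.49 and 0.53), Scd2 and Pnpla3 go together in HCC (0.80) and Scd1 and Me1 in livers (0.85).

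Other genes of the pathway were counted from lists of enzymes, regulators and signaling genes. Over all HCC 9.42% of all probes were called, and the counts below are given beside that share. It includes many probes at background, while a listed gene is represented by its brightest probe, so the share can be a low reference. Among 22 measured enzymes and carriers beside the members, 1 was higher and 5 were lower, with a median of -0.10. Acss2, which makes acetyl-CoA from acetate, fell by 1.03 (SE 0.17, adjusted p = 1.96e-05), and Idh1, another cytosolic source of NADPH, fell by 0.88 (SE 0.17, adjusted p = 0.000257). Mcat, of mitochondrial fatty acid synthesis, fell by 0.43 and Mlycd, which breaks down malonyl-CoA, fell by 0.44. Of 12 glycerolipid genes 4 were higher and 3 lower. The lipid droplet gene Cidec rose by 1.32 (SE 0.18, adjusted p = 9.39e-07, above background on 12 of 34 arrays) and the phosphatidate phosphatase Lpin1 by 1.02, while the acyltransferase Agpat2 fell by 1.06 and Cideb, which acts in VLDL assembly, fell by 0.57.

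Of 22 regulators 1 was higher and 1 lower, close to the 9.42% of all probes. Insig2, which holds SREBP in the endoplasmic reticulum, fell by 1.29 (SE 0.16, adjusted p = 1.84e-07), and the nuclear receptor Pparg rose by 0.69 (SE 0.12, adjusted p = 8.06e-05). Mlxipl, which encodes ChREBP, was not called because its fold change lay under 1.3 (-0.36 ± 0.14), and Med15, a Mediator subunit, was at 0.20 ± 0.08 (SE). Of 8 carbohydrate-response genes 2 were higher, Txnip (0.87) and the glucose transporter Slc2a2 (0.50), and Gpd1 was lower (-0.80). The fructokinase Khk, at -0.28, was not called. Of 16 insulin and AMPK genes 2 were higher, the AMPK subunit Prkab1 (0.96) and Igfbp1 (1.16), and 3 were lower, among them the AMPK subunit Prkaa2 (-0.74) and Mtor (-0.45). Of 11 sterol synthesis genes Lss was higher (0.52), Fdps (-0.40) and Msmo1 (-0.62) were lower, and Idi1, at -0.21, was not called. The list medians ran from -0.17 for sterol synthesis to 0.14 for glycerolipid assembly.

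The 10 genes most like the members were found by Pearson's r over 34 arrays with the mean of the 9 members' z-scores, among 14623 genes, a description without a test in which the difference between tissues is shared. Mid1ip1 (r = 0.75), the paralog and partner of Thrsp, came first, and Elovl5 (0.74), an elongase of polyunsaturated fatty acids, the second. Chrna4 (0.74), Ttr (0.73), Olfr1347 (0.71), the acyl-CoA binding protein Dbi (0.71), Llph (0.71), Slc25a44 (0.71), Apoc1 (0.71) and Mrps28 (0.70) followed.

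Among markers of other cells, 2 of 7 macrophage markers rose in high-LET HCC against sham (6.76% of all probes called), Adgre1 by 0.47 and Csf1r by 0.63. Against high-LET livers 3 of 7 rose (8.08% of all probes), with Vsig4 by 1.00, while Cd5l lay above background on no array. Endothelial markers had the same counts, 2 of 7 higher against sham and 3 of 7 against high-LET livers. Macrophage markers summed to 4538 to 5094 in the 3 tumors of low Gpc3. In high-LET HCC replicates 1 to 4 they summed to 1170, 2537, 1476 and 3412, against 1883 to 2507 in sham livers. Whether the macrophage calls hold without the 3 tumors was not tested. Over all HCC the Kupffer cell lectin Clec4f fell by 0.95 and 2 of 7 endothelial markers rose, and of 8 hepatocyte markers Cps1, of the urea cycle, was lower. For lymphocytes 0 of 6 and for cholangiocytes 0 of 5 were called over all HCC, Epcam and Cftr lying above background on no array. Of 7 stellate cell and fibroblast markers 2 rose and 2 fell. The part of these cells in the member signals was not tested.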

How the data were processed

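Liver RNA was hybridised to Illumina mouse BeadChips, 34 arrays on 8 BeadChips, grouped by the radiation and pathology labels. The deposited intensities are mean bead signals that the authors summarised in GenomicStudio, with background still in them. The authors also deposited log2 values, background-subtracted with MBCB and quantile normalised, used here as an alternative. The values reported here came from normexp correction in limma (offset 50), quantile normalisation and log2 transformation of the intensities (R 4.3.3, limma 3.58.1, data.table version 1.17.8). Signals above the mode of an array by more than 1.645 SD counted as above background. Testing was limited to 45219 probes that exceeded, on 3 or more arrays, the median of that array's dimmest 25%. The limma model had a mean for each of 6 groups, with all HCC against all non-HCC as the difference between the means of 3 group means. Correlations, promoters and figures used Python 3.11.15 with numpy 2.4.6, pandas 2.3.3, scipy 1.17.1, statsmodels 0.14.6 and matplotlib 3.10.9. The tests were checked on simulated data.

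All members are named, with up to 4 genes of each other pathway list by smallest adjusted p over all HCC and the 10 genes most like the members. Gpc3, Afp and cell type markers beyond the sums were named after their values were seen. Platform symbols gave 34885 probes 1 gene, 18 several and 10378 none. The members and lists were chosen with earlier results of these data known. Alternatives were the authors' values, uncorrected intensities, median scaling, other filters, a fixed and a random BeadChip block, array weights, unmoderated variances, all probes of a gene, only the groups compared, all 20 non-HCC livers as baseline, stricter thresholds and leaving out single arrays, except of the 10 high-LET livers. A filter on 3 arrays above the background limit and the omission of 3 high-LET HCC with low Gpc3 were added after the data were seen.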

Additional observations from a re-analysis of the deposited data

Results flagged for a closer look

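In 3 of 45 groups of values, 1 sample lay far from the others of its group by Dixon's criterion, where chance gives about 1 in 20, or 2.25. Acly was highest in low-LET liver replicate 3, at 13.18 on the log2 scale (9277, with the next at 6381). Pnpla3 was highest in high-LET liver replicate 7, at 9.78 (880, with the next at 288). Scd1 was lowest in high-LET HCC replicate 4, the 0.4 Gy tumor, at 12.21 (4724, with the next at 15003). No member was called for an interaction between radiation and HCC.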

How the results depend on the processing

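Me1 kept its direction and its call under every alternative and every omission of 1 array in each comparison in which it was called, and no called member changed direction under any alternative. Numbers in brackets here are the calls over all probes in the same setting. The single call in high-LET against spontaneous HCC (1123) became 0 on the authors' values (1509) and at a common median (150). It became 0 with BeadChip as a fixed (276) or random block (944) and in an ordinary linear model (841). The same held with only the groups compared (1), at stricter thresholds (346) and without the 3 tumors of low Gpc3 (634). It became 2 with the filter on 10 arrays (1614) and 3 with array weights (2485). The 4 calls in high-LET HCC against high-LET livers (3653) became 1 at a common median (2294). They became 2 with BeadChip as a fixed block (3313) or with only the groups compared (3354). The 2 calls in low-LET HCC against low-LET livers (2976) became 1 with BeadChip as a fixed block (1567). Without the 3 tumors of low Gpc3 there were 3 (3395). The 0 calls in high-LET against low-LET HCC (284) became 2 with the filter on 10 arrays (605) and 3 with array weights (1550). With the added filter on 3 arrays there was 1 (529). The 0 calls of the interaction (314) became 3 with array weights (3843). The 1 call in high-LET HCC against sham (3056) became 5 with all 20 livers as baseline (3788) and 5 without the 3 tumors of low Gpc3 (5255). With the 20 livers the 5 were Scd2, higher, and Acly, Elovl6, Me1 and Srebf1, lower. The causes were not tested. Leaving out 1 of 24 arrays gave 1 to 3 calls in high-LET HCC against sham, 1 to 4 against high-LET livers, 1 to 2 in low-LET HCC against low-LET livers, 0 to 3 in high-LET against spontaneous HCC, 0 to 2 in high-LET against low-LET HCC and 0 to 2 for the interaction.

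Of 92 member results that were not called, 38 changed sign and 15 were called under some alternative. Signal over background limits Acaca, which was not measured, and Fasn, Me1 and Scd2, whose changes the added constant of 50 understates. No paired analysis was possible because replicate numbers are in accession order and pair no samples.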
